A study of Mus musculus with 12 samples.

Results

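The genes described are 9 that are known for the formative and primed states of pluripotency: the transcription factors Otx2, Pou3f1, Sox3, Sox4, Sox11, Zic2 and Zic5, the growth factor Fgf5 and the adhesion molecule Cdh2. They were taken by symbol, and all 9 were found among the 24480 genes of the deposited tables. RNA was sequenced from undifferentiated E14Tg2a cells, a mouse embryonic stem cell (ESC) line grown without feeders in serum and leukemia inhibitory factor (LIF), in 4 groups of 3 independent samples. For the knockdown, siRNAs against YAP (YAP KD) were set against scrambled siRNAs (CTR KD). For the overexpression, a pCAG plasmid coding for mouse YAP (YAP OE) was set against a control plasmid (CTR OE) that is a GFP plasmid in the labels and an empty vector in the study's text. All 4 groups were transfected transiently with Lipofectamine, so a group can mix cells that took up more and less of the reagent, and the RNA was taken before any differentiation was induced.

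The formative and primed states are the stages that the epiblast passes through after the naive state and before the germ layers form. On leaving the naive state, cells switch on Otx2, Pou3f1 (Oct6) and Fgf5, while Zic and Sox factors mark the anterior epiblast and the neural plate that follows from it, and N-cadherin (Cdh2) replaces E-cadherin (Cdh1) in part of the tissue. ESCs in serum and LIF are a mixed population in which some cells express such genes at a low level. YAP is a coactivator that does not bind DNA itself and reaches its targets mainly through the TEAD transcription factors.

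Because TEAD factors are the main route of YAP to DNA, the bases just upstream of the gene starts were read from RefSeq promoter sequences (build GRCm38.p6) and searched for the TEAD core motif GGAATG on both strands (CATTCC on the strand shown when the motif lies on the opposite strand). Sequences were found for 5 of the 9 genes, Fgf5, Otx2, Sox4, Sox11 and Zic5, with 8 promoters in all since Otx2 has 4 starts. Some of the Otx2 windows overlap, so the 8 are not all separate sequences. Pou3f1, Sox3, Zic2 and Cdh2 had no sequence. The motif was in 2 of the 8 windows of 250 bases, those of Zic5 and Sox4, against 12.6% of all 32851 promoters of the same length. The windows of Zic5 and Sox4 are shown with the motif in capitals, and that of Fgf5, which has no match, is shown because its response was among the largest. Zic5 lies on the minus strand and its window is chr14:122465659-122465908, Sox4 lies on the minus strand with the window chr13:28953700-28953949, and Fgf5 lies on the plus strand with the window chr5:98253934-98254183.
Zic5: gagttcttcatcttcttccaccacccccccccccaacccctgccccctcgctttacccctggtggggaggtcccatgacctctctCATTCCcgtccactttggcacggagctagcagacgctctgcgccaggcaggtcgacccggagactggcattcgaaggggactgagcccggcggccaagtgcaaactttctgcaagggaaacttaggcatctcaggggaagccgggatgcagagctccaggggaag
Sox4: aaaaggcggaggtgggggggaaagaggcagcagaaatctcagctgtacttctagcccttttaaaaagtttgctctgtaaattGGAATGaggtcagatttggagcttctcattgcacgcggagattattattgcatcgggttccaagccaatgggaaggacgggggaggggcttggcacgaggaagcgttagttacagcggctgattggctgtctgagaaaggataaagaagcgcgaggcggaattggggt
Fgf5: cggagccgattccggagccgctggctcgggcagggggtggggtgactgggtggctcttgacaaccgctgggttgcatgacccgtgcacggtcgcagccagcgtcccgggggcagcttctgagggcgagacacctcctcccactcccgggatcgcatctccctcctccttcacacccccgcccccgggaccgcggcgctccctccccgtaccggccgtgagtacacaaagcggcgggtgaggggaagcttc
The motif began 165 bases before the start of Zic5 and 168 bases before that of Sox4. A match describes these letters only. The log2 fold changes of the 2 genes that hold it had opposite signs in YAP KD, 0.20 for Zic5 and -0.24 for Sox4, and neither passed the test.

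The libraries held 4.293e+07 to 5.724e+07 expected counts (fragments assigned to a gene by the authors' counting program), with 17611 to 18163 genes detected. Yap1 served as the check of the labels: it was at 125 ± 9.40 CPM, a library's count scaled to a common library size (mean ± SD, n = 3) in CTR KD and 56.7 ± 1.80 in YAP KD, and at 133 ± 2.02 in CTR OE and 259 ± 16.6 in YAP OE. Its log2 fold change was -1.14 in YAP KD (adjusted p = 4.36e-05, edgeR) and 0.97 in YAP OE (adjusted p = 3.47e-08, edgeR). The core pluripotency genes Pou5f1, Sox2 and Nanog were detected in every library and 0 of 3 passed the edgeR test in either experiment (1 of 3 at an unadjusted p under 0.05 in YAP KD and 0 in YAP OE). In bulk RNA, fewer cells that express a gene and less RNA per cell cannot be told apart.

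The 9 genes were expressed over a wide range. Levels are compared between genes as CPM per kilobase of effective length, and all other levels below are CPM. In CTR KD, Otx2 (15.3 ± 0.650 CPM per kilobase) and Zic2 (13.8 ± 2.03) were the highest, with a difference smaller than the SD of Zic2. Sox4 (9.93 ± 0.0907) and Zic5 (6.22 ± 0.110) followed, and then Pou3f1 (3.11 ± 0.409) and Sox11 (3.01 ± 0.123), which did not differ beyond their spread. Cdh2 (1.42 ± 0.0583) came next, and Fgf5 (0.531 ± 0.0346) and Sox3 (0.442 ± 0.171) were the lowest and overlapped within their SDs. In YAP KD the first places changed, with Zic2 at 19.5 ± 1.06 CPM per kilobase and Otx2 at 13.7 ± 0.336. In YAP OE Zic2 had 9.72 ± 1.04, below Otx2 at 16.7 ± 0.878 and next to Sox4 at 9.87 ± 1.25. Sox3 and Fgf5 had the lowest counts, 24 to 62 and 38 to 81 per library, against 1325 to 3002 for Zic2.

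**Figure D1:**
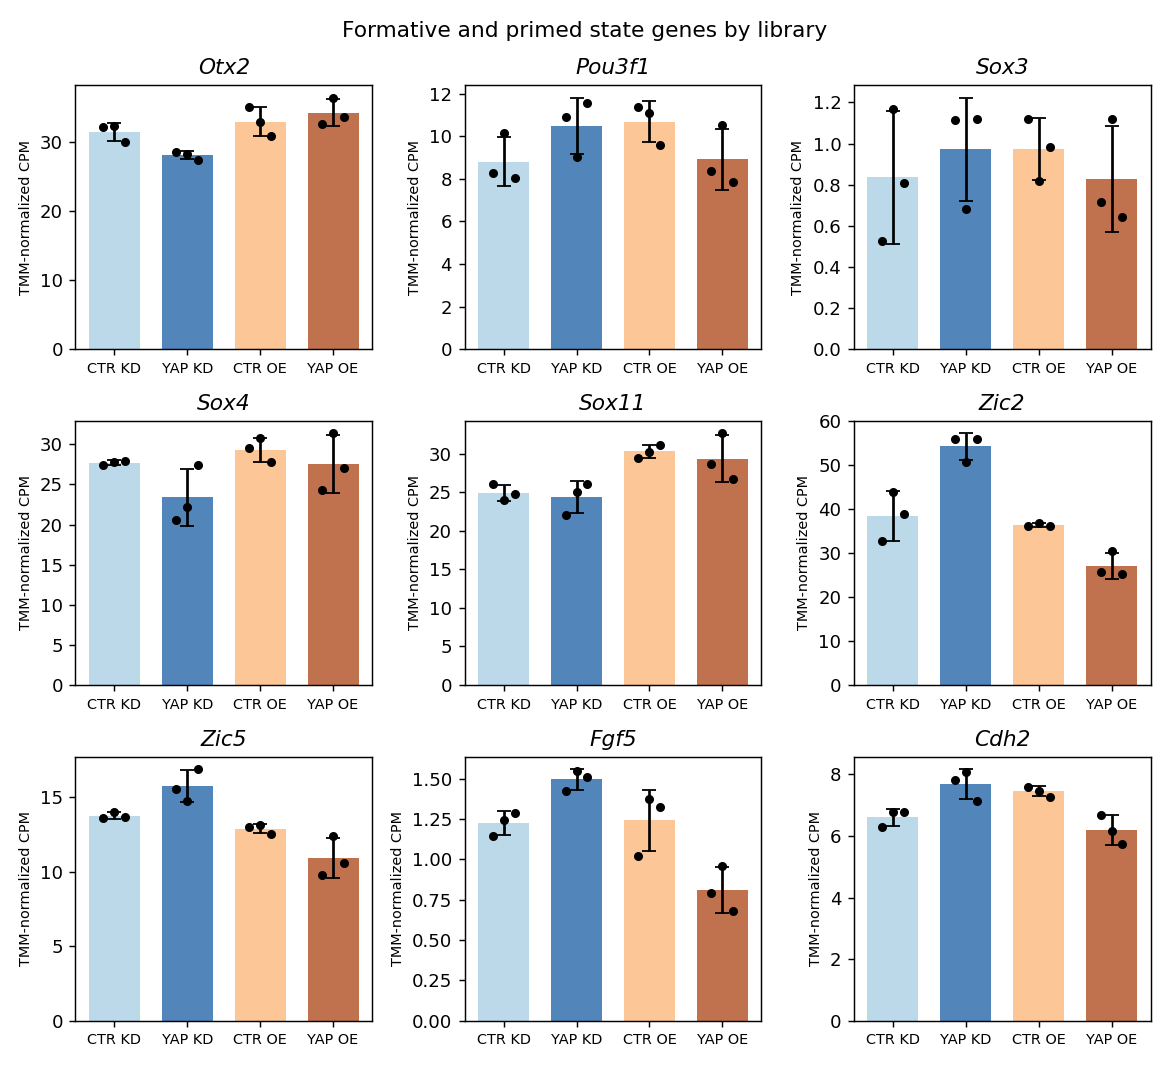
Level of each of the 9 genes in the 12 libraries, in TMM-normalized CPM on a linear axis from 0. Bars are group means, error bars are SD (n = 3) and points are libraries; Zic2 is highest in the 3 YAP KD libraries (50.8 to 56.0) and lowest in the 3 YAP OE libraries (25.2 to 30.6).

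Zic2 was the gene with the clearest response. It is a zinc finger transcription factor of the epiblast and the early neural plate. In the knockdown experiment it stood at 32.7, 43.9 and 38.8 CPM in the CTR KD libraries and at 55.9, 50.8 and 56.0 CPM in the YAP KD libraries. The groups did not overlap, although the CTR KD libraries spread widely, from 32.7 to 43.9 CPM. The means were 38.5 ± 5.65 and 54.3 ± 2.99 CPM (SD, n = 3), a log2 fold change of 0.50 ± 0.091 (SE), and Zic2 passed the test (adjusted p = 0.0137, edgeR quasi-likelihood test with Benjamini-Hochberg adjustment over 14606 genes). The call did not hold without CTR KD replicate 3 (adjusted p = 0.068), YAP KD replicate 1 (0.0693) or YAP KD replicate 3 (0.0603), with log2 fold changes between 0.39 and 0.60 over the 6 libraries left out in turn.

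In the overexpression experiment Zic2 was at 36.1, 36.8 and 36.3 CPM in CTR OE and at 25.6, 30.6 and 25.2 CPM in YAP OE. All YAP OE libraries were below all controls, and the controls were close to each other. The log2 fold change was -0.43 ± 0.061 (adjusted p = 0.00118, edgeR), and it passed the test whichever library was left out (adjusted p at most 0.00687). The 2 control groups did not differ in Zic2 beyond their spread (log2 difference of CTR OE against CTR KD -0.083 ± 0.088, adjusted p = 0.821, edgeR).

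Zic2 was the only one of the 9 genes called in either experiment taken alone. That is 1 of 9 in YAP KD, where 5.49% of the 14606 genes tested were called (2.71% higher), and 1 of 9 in YAP OE, where 2.13% of 14804 were called (0.473% lower). At an unadjusted p under 0.05 there were 6 of 9 and 5 of 9, and the share of all genes at that threshold was not computed. The 6 in YAP KD include Otx2 and Sox4, which were lower and not higher. Genes called both higher in YAP KD and lower in YAP OE were 22 of the 14521 genes tested in both experiments (0.152%), and Zic2 was one of them.

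Zic5 is the neighbour of Zic2 and encodes a related zinc finger factor. In GRCm38.p6 coordinates Zic5 runs from 122459160 to 122465658 on chromosome 14 and Zic2 from 122475384 to 122480328, with 9725 bases and 1 annotated gene, 2610035F20Rik, between them. Zic5 stood at 13.6, 14.0 and 13.6 CPM in CTR KD against 15.5, 14.7 and 16.9 CPM in YAP KD, and at 13.0, 13.1 and 12.5 CPM in CTR OE against 9.78, 12.4 and 10.5 CPM in YAP OE. The groups did not overlap in either experiment, with the YAP KD libraries above and the YAP OE libraries below their controls.

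Neither change of Zic5 passed the test alone. The log2 fold change was 0.20 ± 0.062 in YAP KD (adjusted p = 0.109, edgeR) and -0.24 ± 0.075 in YAP OE (adjusted p = 0.135, edgeR). YAP OE replicate 2 was the highest of its group, and without it the value in YAP OE was -0.34 and passed (adjusted p = 0.0135, edgeR). Zic1 was under the expression filter in both experiments.

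Fgf5 encodes the secreted factor by which the post-implantation epiblast is usually recognised. Its levels were low. It was at 1.14, 1.25 and 1.29 CPM in CTR KD and at 1.42, 1.55 and 1.51 CPM in YAP KD, and at 1.02, 1.37 and 1.33 CPM in CTR OE and 0.794, 0.961 and 0.677 CPM in YAP OE. The groups were separate in both experiments. The log2 fold change was 0.29 ± 0.13 in YAP KD (adjusted p = 0.269, edgeR) and -0.63 ± 0.19 in YAP OE (adjusted p = 0.12, edgeR), the latter the largest in size of the 9 genes in that experiment but with the second largest SE. Neither passed the test.

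Cdh2 encodes N-cadherin, which holds epithelial epiblast and neural cells together. It was at 6.30, 6.77 and 6.77 CPM in CTR KD and 7.83, 8.08 and 7.13 CPM in YAP KD, and at 7.61, 7.47 and 7.28 CPM in CTR OE and 6.70, 6.15 and 5.74 CPM in YAP OE. Again the groups did not overlap, with YAP KD above and YAP OE below its control. The controls also lay apart, with means of 6.61 CPM in CTR KD and 7.45 in CTR OE, the latter near the YAP KD mean (7.68). The YAP OE libraries overlapped those of CTR KD. The log2 fold changes were 0.21 ± 0.075 (adjusted p = 0.147, edgeR) and -0.27 ± 0.078 (adjusted p = 0.112, edgeR), and neither passed. Among the related cadherins, Cdh1 (E-cadherin) was not called in either experiment, and Cdh3 (P-cadherin) fell in YAP KD by 0.58 on the log2 scale (adjusted p = 0.00204, edgeR) and was not called in YAP OE (0.045).

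Zic2, Zic5, Fgf5 and Cdh2 therefore had separate groups in both experiments, higher in YAP KD and lower in YAP OE. That is 4 of the 9 genes, against 2.33% of the 14521 genes tested in both. Counting separate groups in either direction, 6 of the 9 genes had them in YAP KD (25.7% of all genes tested) and 4 of 9 in YAP OE (18.2%), all of these lower (7.90%). The 6 include Sox4 by a narrow margin, with its highest YAP KD library at 27.42 CPM and its lowest CTR KD library at 27.43. By sign of the fold change alone, 6 of 9 were higher in YAP KD and lower in YAP OE, against 32.1% of all genes. The median log2 fold change of the 9 genes was 0.21 in YAP KD and -0.27 in YAP OE, against 0.0058 and -0.0025 for all genes tested. The 9 genes were chosen with earlier results of these data known. Values of the list set beside those of all genes are therefore descriptions, here and elsewhere, and not tests.

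**Figure D2:**
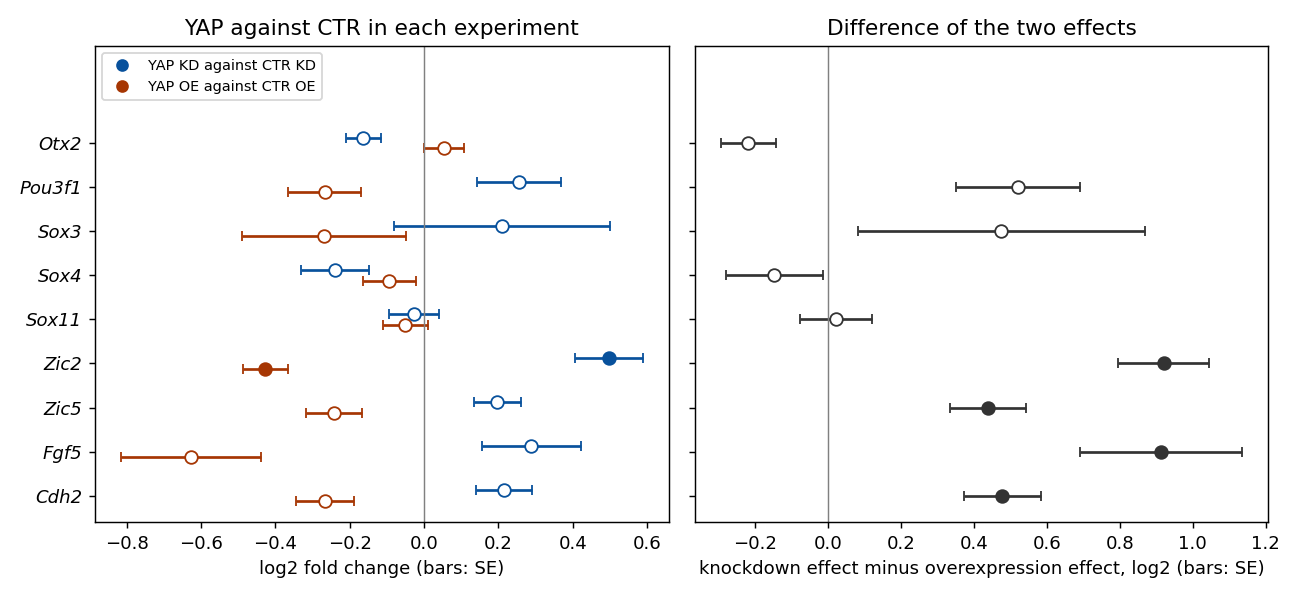
Log2 fold changes of the 9 genes on the left, YAP KD against CTR KD and YAP OE against CTR OE, and on the right the difference of the effects (knockdown minus overexpression). Bars are SE and filled points have an adjusted p under 0.05 (edgeR); Zic2 is filled in both experiments, and Zic2, Fgf5, Cdh2 and Zic5 are filled for the difference.

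The remaining genes were less clear. Pou3f1 is a POU domain factor that acts with Otx2 at formative enhancers. It was at 8.25, 10.1 and 8.03 CPM in CTR KD and 10.9, 9.03 and 11.6 CPM in YAP KD, and at 11.4, 11.1 and 9.57 CPM in CTR OE and 8.38, 10.5 and 7.84 CPM in YAP OE. The groups overlapped in both experiments, through CTR KD replicate 2, YAP KD replicate 2 and YAP OE replicate 2. The CTR OE mean (10.7 CPM) was near that of YAP KD (10.5), and the YAP OE mean (8.92) was near that of CTR KD (8.81). The log2 fold changes were 0.26 ± 0.11 (adjusted p = 0.244, edgeR) and -0.27 ± 0.098 (adjusted p = 0.225, edgeR). Pou3f1 passed in YAP KD without CTR KD replicate 2 (log2 fold change 0.37, adjusted p = 0.0466, edgeR) and in YAP OE without YAP OE replicate 2 (log2 fold change -0.40, adjusted p = 0.0203, edgeR).

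Sox3 is an early neural and epiblast factor of the same subfamily as Sox2. It was at 0.527 to 1.17 CPM in CTR KD, 0.683 to 1.12 in YAP KD, 0.818 to 1.12 in CTR OE and 0.641 to 1.12 in YAP OE. All 4 ranges overlapped. Its log2 fold changes were 0.21 ± 0.29 (adjusted p = 0.76, edgeR) and -0.27 ± 0.22 (adjusted p = 0.678, edgeR). The 95% interval in YAP KD was -0.44 to 0.86, which does not exclude a change of the size seen for Zic2.

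Otx2, the homeodomain factor that starts the exit from the naive state, did not share the direction of Zic2. It was at 32.3, 32.3 and 30.0 CPM in CTR KD and at 28.6, 28.3 and 27.5 CPM in YAP KD, where every YAP KD library was below every control. The log2 fold change was -0.16 ± 0.048 and did not pass (adjusted p = 0.087, edgeR). In the overexpression experiment the libraries overlapped, with 35.1, 32.9 and 31.0 CPM in CTR OE and 32.7, 36.5 and 33.6 CPM in YAP OE (log2 fold change 0.054 ± 0.054, adjusted p = 0.748, edgeR).

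Sox4 and Sox11 belong to the SoxC subfamily, which acts in neural progenitors. Sox4 was at 27.4, 27.8 and 27.9 CPM in CTR KD and 20.6, 22.1 and 27.4 CPM in YAP KD, so that YAP KD replicate 3 was at the edge of the controls and the other 2 libraries were clearly below them. The log2 fold change was -0.24 ± 0.091 (adjusted p = 0.178, edgeR), and without YAP KD replicate 3 it was -0.38 and passed (adjusted p = 0.0163, edgeR). In YAP OE it was -0.093 ± 0.072 (adjusted p = 0.653, edgeR), with overlapping libraries.

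Sox11 was at 26.0, 24.0 and 24.7 CPM in CTR KD and 22.0, 25.0 and 26.1 CPM in YAP KD. Its log2 fold change was -0.027 ± 0.067 (adjusted p = 0.882, edgeR). In the overexpression experiment it was at 29.5, 30.3 and 31.1 CPM in CTR OE and 28.6, 32.6 and 26.7 CPM in YAP OE (log2 fold change -0.050 ± 0.061, adjusted p = 0.808, edgeR). The libraries overlapped in both. Between the controls, all CTR OE libraries were above all CTR KD libraries in Sox11, by 0.28 ± 0.070 on the log2 scale, which did not pass the test (adjusted p = 0.0656, edgeR) but did without YAP KD replicate 1 (adjusted p = 0.0493, edgeR), YAP OE replicate 2 (0.0339) or YAP OE replicate 3 (0.042). By edgeR 0 of the 9 genes were called between the controls (3 at an unadjusted p under 0.05, and 1, Sox11, by DESeq2), where 1.33% of the 15049 genes tested were called. The control libraries did not overlap for Sox11, Zic5 and Cdh2, 3 of 9 genes against 16.3% of all genes tested. The kind of transfection and any batch between the experiments cannot be told apart in that comparison.

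Whether the response to less YAP differed from the response to more YAP was tested as the difference of the effects, in 1 edgeR fit over all 12 libraries. Opposite responses to less and to more YAP add up in this difference. Of the 9 genes, 4 were called, all of them higher in YAP KD than in YAP OE relative to their controls, where 8.80% of the 15049 genes tested were called (3.56% in this direction). Zic2 had a difference of 0.92 ± 0.12 on the log2 scale (adjusted p = 0.000273, edgeR). Fgf5 had a difference of 0.91 ± 0.22 (adjusted p = 0.0178, edgeR), Cdh2 of 0.48 ± 0.10 (adjusted p = 0.00957, edgeR) and Zic5 of 0.44 ± 0.10 (adjusted p = 0.0156, edgeR). The calls of Zic2, Zic5 and Cdh2 held with each of the 12 libraries left out in turn. That of Fgf5 was lost without CTR OE replicate 2 (adjusted p = 0.0502), CTR OE replicate 3 (0.0545) or YAP OE replicate 3 (0.0512), with differences of 0.79 to 1.04.

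Of the other 5 genes, Pou3f1 had a difference of 0.52 ± 0.17 that did not pass (adjusted p = 0.0741, edgeR). It passed without CTR KD replicate 2 (adjusted p = 0.0206), YAP KD replicate 2 (0.0396) or YAP OE replicate 2 (0.0233), and also by DESeq2 (0.0358) and with genes kept at 1 count in any library (0.0365). Sox3 had a similar difference with a larger error, 0.47 ± 0.39 (95% interval -0.36 to 1.31). Otx2 had -0.22 ± 0.076 (adjusted p = 0.093, edgeR) and Sox4 -0.15 ± 0.13 (95% interval -0.43 to 0.14). For Sox11 the difference was 0.021 ± 0.10, with a 95% interval of -0.19 to 0.23 that leaves out differences of the size of the 4 genes called.

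**Figure D3:**
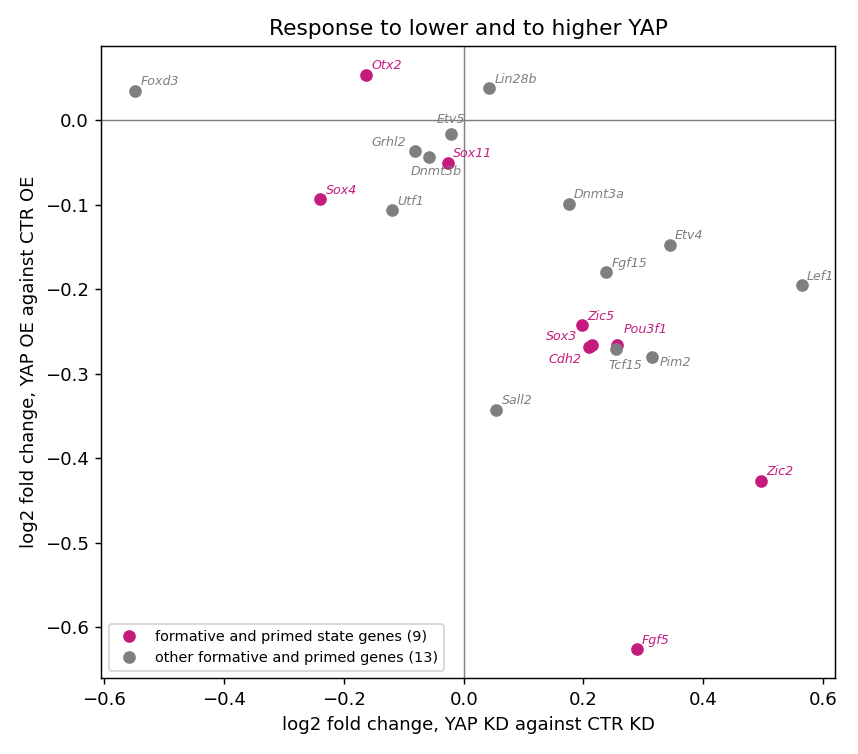
Log2 fold change in YAP KD (x axis) against that in YAP OE (y axis) for the 9 genes and for 13 of the 14 other formative and primed genes; each point is a gene and lines mark 0. Of the 9 genes, 6 lie in the lower right quadrant (higher in YAP KD, lower in YAP OE), with Zic2 and Fgf5 farthest out and Otx2 in the opposite one.

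A list of 14 other genes of the formative and primed states was read in the same way, and all 14 were tested. In YAP KD 2 of them rose: Etv4 (0.34, adjusted p = 0.00527, edgeR), a factor downstream of FGF signalling, and Pim2 (0.32, adjusted p = 0.0316, edgeR), a kinase. In YAP OE 1 of the 14 fell, Sall2, a zinc finger factor (-0.34, adjusted p = 0.0325, edgeR). The median log2 fold change of the list was 0.049 in YAP KD and -0.10 in YAP OE, closer to the medians of all genes than that of the 9.

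For the difference of the effects, 5 of the 14 were called, all higher: Lef1, a Wnt pathway factor (0.76 ± 0.20), Pim2 (0.59 ± 0.12), Etv4 (0.49 ± 0.083), the growth factor Fgf15 (0.42 ± 0.11) and the de novo methyltransferase Dnmt3a (0.27 ± 0.067), with adjusted p between 0.00164 and 0.0317. Dnmt3b, its partner enzyme, Utf1, Etv5 and Lin28b were not called, with differences between -0.016 and 0.0027. The lowest difference of the 14 was -0.59, 0 were called lower, and 8 of 14 had an unadjusted p under 0.05 by edgeR. Of all 15049 genes tested, 8.80% were called for the difference (3.56% higher). By sign, 7 of 14 were higher in YAP KD and lower in YAP OE. Foxd3, which is needed in the passage to the primed state, had -0.55 ± 0.15 in YAP KD (adjusted p = 0.0737, edgeR). Pim2 also differed between the controls (log2 difference 0.50, adjusted p = 0.00899, edgeR). Dnmt3b was called there as well, with means of 232 CPM in CTR KD and 282 in CTR OE.

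Several of the 9 genes are also neural genes, so a list of 10 neural markers was read beside them, of which 6 passed the expression filter in each experiment. Nestin (Nes), an intermediate filament of neural progenitors, rose in YAP KD (0.45 ± 0.046, adjusted p = 0.00073, edgeR), as did Tubb3, a neuronal tubulin (0.32 ± 0.055, adjusted p = 0.00975, edgeR). In YAP OE Tubb3 fell by 0.20 on the log2 scale (adjusted p = 0.0353, edgeR) and Nes had -0.12 (adjusted p = 0.235, edgeR). Sox1, Pax6, Hes5 and Ncam1 were not called in either experiment. The summed level of the 10 markers was 104 to 117 CPM in CTR KD and 123 to 130 in YAP KD. It was 117 to 119 in CTR OE and 108 to 110 in YAP OE. The sums did not overlap between YAP and control in either experiment, but those of YAP OE lay within the range of CTR KD. By gene, 2 of the 6 tested had separate groups in YAP KD (25.7% of all genes tested) and 3 of 6 in YAP OE (18.2%). The higher sum in YAP KD came from Nes (mean 21.9 CPM in CTR KD and 30.0 in YAP KD) and Tubb3 (43.9 and 54.8), while Pax6 and Ncam1 had lower means in YAP KD. The lower sum in YAP OE came from Tubb3, Nes and Pax6, while Sox1 and Ncam1 had higher means there. Neurog2, which marks committed neural progenitors, was below 0.1 CPM in every library, and Nes also differed between the controls (0.32, adjusted p = 0.00147, edgeR). The part of neural or more advanced cells in the values of the 9 genes was not tested.

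Of 11 genes of the naive state, 0 were called by edgeR in YAP KD (6 at an unadjusted p under 0.05), with a median log2 fold change of -0.068, and 1 in YAP OE, Nr0b1, which fell by 0.19 on the log2 scale. Their summed level was lower with YAP KD (2551 to 2670 CPM against 2694 to 2862 in CTR KD). It was also lower with YAP OE (2517 to 2550 against 2602 to 2609 in CTR OE). The controls differed as well, since the CTR OE sums lay below all CTR KD sums and within the range of YAP KD. By sign 7 of the 11 were lower in YAP KD and 9 in YAP OE, counts that were not set beside all genes. In YAP KD the most abundant, Zfp42, Esrrb and Tfcp2l1, had lower means, while Tbx3 and Prdm14 had higher ones. Between the controls 10 of the 11 were lower in CTR OE, and 2 of them, Tfcp2l1 and Prdm14, were called. Of the primitive streak genes, 0 of 5 tested in YAP KD and 0 of 6 tested in YAP OE were called (1 and 2 at an unadjusted p under 0.05). Of the primitive endoderm list Dab2 rose in YAP OE, where 3 of the 6 genes had positive and 3 had negative log2 fold changes. Of the trophoblast list Krt8 and Tfap2c rose in YAP KD. In YAP OE Cdx2, Gata3, Krt8 and Krt18 rose, while Tfap2c had a lower mean (53.3 CPM in CTR OE and 47.7 in YAP OE) and was not called. Krt8 and Krt18 were also called between the controls, higher in CTR OE.

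To see whether the 9 genes varied together from library to library, the mean of each group was taken off the log2 CPM and the 36 pairs of genes were correlated over the 12 libraries. Of the 36 pairs, 31 had a positive Pearson's r, with a median of 0.33, against -0.0020 over all pairs of the 15049 genes tested. Of the 36, 0 passed after adjustment over the pairs (exact permutation within groups, two-sided, smallest adjusted p = 0.172), and 6 had an unadjusted p under 0.05. With 1296 arrangements of the libraries the smallest p that could be reached was 0.000772.

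Sox3 and Zic2 were the most alike pair (r = 0.92, exact permutation p = 0.0147, adjusted 0.172; Spearman's rho = 0.91, exact permutation p = 0.0131, adjusted 0.148). Without the 2 libraries farthest from the median of Sox3 their r was 0.86. Sox4 and Zic5 followed with r = 0.86 (0.70 without the 2 farthest), Pou3f1 and Sox3 with 0.80 (0.64), Pou3f1 and Zic5 with 0.78 (0.69) and Pou3f1 and Zic2 with 0.77 (0.54). These were the 5 pairs of 36 with r above 0.7, against 3.61% of all pairs of genes. The neighbours Zic2 and Zic5 had r = 0.64, which was 0.88 without the 2 farthest libraries. Cdh2 had the lowest values, from r = -0.53 to Sox4 (exact permutation p = 0.299) and -0.44 to Zic5 (exact permutation p = 0.414) up to 0.19 to Fgf5, with 4 of its 8 pairs positive.

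The median over the pairs depended mostly on 1 library. YAP OE replicate 2 was above the mean of its group for 8 of the 9 genes, by 0.20 on the log2 scale on average, and YAP OE replicate 3 was below it for all 9. Without YAP OE replicate 2 the median r over the 36 pairs was 0.077 and 20 were positive, whereas leaving out any of the other 11 libraries gave medians of 0.31 to 0.44. The positive pairs were 25 without YAP OE replicate 3 and 29 to 32 without any of the remaining libraries. The median r was 0.69 within the 6 libraries of the overexpression experiment and 0.16 within those of the knockdown, and 22 of the 36 pairs were positive in both. The 5 pairs with r above 0.7, picked by their r over all 12 libraries, had r of 0.74 to 0.96 within the knockdown libraries alone. YAP OE replicate 2 had the fewest counts of the 12 libraries (4.293e+07), and its Yap1 level, 256 CPM, lay between those of the other two. The part of depth in these deviations was not tested.

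**Figure D4:**
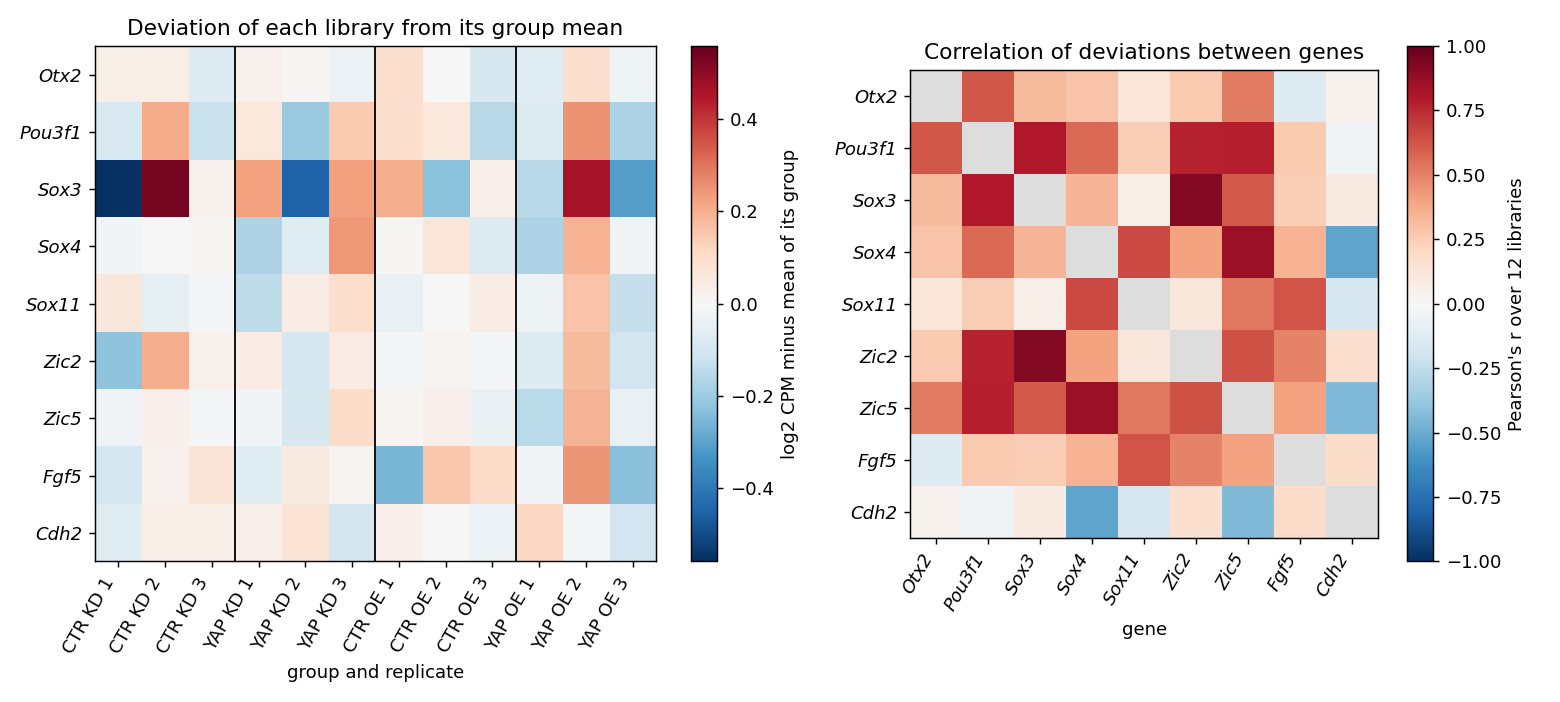
Left, deviation of each of the 12 libraries from its group mean (log2 CPM) for the 9 genes; right, Pearson's r of these deviations between genes. The column of YAP OE replicate 2 is above the mean for 8 of 9 genes, and 31 of 36 pairs on the right are positive, with Cdh2 the row of lowest values.

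Finally, the genes whose pattern was most like that of each member were found among 12405 genes with a mean of at least 1 CPM, by r over the 12 libraries with each experiment centred on its own mean. This r holds the YAP effect as well as the variation between libraries. For Zic2 they were Ddx58 (r = 0.98), Ssbp4 (0.96) and Sp8 (0.96), and for Zic5 Exosc3 (0.92), Gbx2 (0.92) and Map3k6 (0.90). For Fgf5 they were Frmd4a (0.94), Kdm6b (0.89) and Wt1 (0.88), and for Cdh2 Pde4d (0.96), Hsd17b14 (0.94) and Hmces (0.93). Of these, Sp8 had log2 fold changes of 0.50 in YAP KD and -0.47 in YAP OE, close to those of Zic2. Among the 9 genes themselves, Zic2 was most like Zic5 (r = 0.87), Zic5 most like Pou3f1 (0.87), and both Fgf5 (0.81) and Cdh2 (0.81) most like Zic2, whereas Otx2 had a median r of -0.19 to the other genes.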

How the data were processed

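RNA from the 12 libraries was sequenced by the authors on the Illumina Genome Analyzer platform, mapped with STAR to mm10 and counted by RSEM on curated RefSeq transcripts; versions and a strand setting are not given in the sources used here. The deposited expected counts are not normalized, the deposited TPM values were not used in any test, and the deposited lengths and effective lengths, in bases, served for CPM per kilobase and 1 alternative. All counts of the 9 genes were whole numbers.

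Expected counts were rounded. Separate edgeR 4.0.16 fits (R 4.3.3) were made for the 6 libraries of each experiment, with filterByExpr, TMM factors and the two-sided quasi-likelihood test, with Benjamini-Hochberg adjustment over all genes tested and a call at an adjusted p under 0.05. SE was the log2 fold change divided by the square root of F. The difference of the effects and the comparison of the controls came from 1 fit over 12 libraries. CPM values use 1 TMM scale over 12 libraries, and log2 CPM a prior count of 2. Alternatives were another scaling, other filters, DESeq2 1.42.0, limma-voom (limma 3.58.1), a length offset, small RNAs left out, the replicate number as a block and each library left out; leaving out libraries from the correlations was added after seeing the data.

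The members and lists were chosen with earlier results of these data known. Named genes were the members, the other formative and primed genes, cell type markers, family relatives, Yap1 and, for each member, the 3 genes most like it. No library was a copy of another: a chi-square of counts over genes, divided by its degrees of freedom, was 3.54 to 25.7 in the 12 pairs of replicates. Counts per library limit the precision of Sox3 and Fgf5, and the CTR KD libraries of Sox3 also spread widely (0.527 to 1.17 CPM). The genome given was of another build and was not used. Some genes of the lists are counted in them but not reported here by name.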

Additional observations from a re-analysis of the deposited data

Results flagged for a closer look

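For 4 genes the log2 fold change in YAP KD differed from that in YAP OE by a test of the difference itself (edgeR, adjusted over 15049 genes). YAP was lowered in the knockdown and raised in the overexpression, so opposite responses add up in this difference. The difference, knockdown effect minus overexpression effect on the log2 scale, was 0.92 for Zic2, 0.91 for Fgf5, 0.48 for Cdh2 and 0.44 for Zic5. Each had its YAP KD libraries above and its YAP OE libraries below their controls, in 3 of 3 libraries of each group.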

How the results depend on the processing

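Zic2 was called in YAP OE under all 10 processing alternatives and in YAP KD under 9 of 10, and Zic2, Zic5, Fgf5 and Cdh2 kept the call for the difference under all 9. The main fits did not pair samples by replicate number, and with 3 libraries per group the correlations could not decide whether they were paired. Same-numbered libraries had correlations of deviations between -0.26 and -0.013 in the knockdown and between 0.019 and 0.046 in the overexpression experiment. The library of the same number was the best match in 3 of 3 cases in the overexpression experiment and 0 of 3 in the knockdown. With the replicate number as a block, 0 members were called in YAP KD (Zic2 adjusted p = 0.0717), 1 in YAP OE, 4 for the difference and 0 between the controls, with 193, 280, 784 and 88 genes called in all. With genes kept at 1 count in any library, 3 members were called in YAP OE (Pou3f1, Zic2 and Zic5, of 556 genes), 5 for the difference (Pou3f1 added) and 1 between the controls (Sox11), and DESeq2 gave the same 5 and 1. Leaving out each library in turn gave 0 to 2 members in YAP KD, 1 to 3 in YAP OE, 3 to 5 for the difference and 0 to 1 between the controls, and 298 to 1019, 154 to 327, 943 to 1490 and 85 to 217 genes. One fit over all libraries called 1261 genes in YAP KD. The share of higher calls in YAP OE was 77.8%, 68.2% without the filter and 85.9% with total counts, and no scaling moved the median of all genes by more than 0.1. The sign changed in 12 of the leave-one-out values, none of them called: Sox3 in YAP KD (-0.028, range to 0.54), Sox11 in YAP KD (0.00046 and 0.038, range from -0.084), in YAP OE (0.010, range from -0.13) and for the difference (-0.0021, -0.031 and -0.043, range to 0.11), and between the controls Fgf5 (-0.031, -0.056 and -0.035, range to 0.14), Sox3 (-0.029, range to 0.54) and Zic2 (0.028, range from -0.19). The median r over pairs was 0.077 to 0.44 with each library left out and 0.28 without the 2 farthest libraries. The causes were not tested. Sox3 was not tested in YAP OE at a filter of 1 CPM.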
